A study of Arabidopsis thaliana with 30 samples.

Results

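The members were the serine carboxypeptidase-like (SCPL) and beta-glucosidase (BGLU) genes measured in 5 sorted cell types of the Arabidopsis thaliana root at pH 5.7 and pH 4.6. They were the probe sets that the array annotation pairs with a single gene whose symbol is SCPL or BGLU plus a number, in capitals or lower case, with BGLU42 left out. The rule gave 48 of 22810 probe sets, of which 29 were SCPL and 19 were BGLU, with 1 probe set per gene. Another 3 probe sets that are shared by several genes, with 5 symbols of this kind among them, were not analysed here. The rule itself uses no measured value, but the members were chosen with earlier results of these data known. Symbols are written as the annotation spells them, so that SCPL34 and scpl29 belong to the same family.

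SCPL proteins are relatives of the serine carboxypeptidases, enzymes that cut amino acids from the end of a peptide, and most carry a signal for the secretory pathway. Some members act instead as acyltransferases that use glucose esters as acyl donors, as in the synthesis of sinapate esters. BGLU proteins are glycoside hydrolases that remove glucose from glucosides and free the stored part, which can be a defence compound, a lignin precursor, a flavonol or a hormone. In the Arabidopsis root the best known beta-glucosidase is PYK10, which fills the endoplasmic reticulum (ER) bodies, and its symbol places it outside the rule.

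Each measurement came from an Affymetrix ATH1 array hybridised with RNA from cells of the Columbia ecotype. Seedlings had spent 5 days on medium of pH 5.7 and were then kept for 24 h on medium adjusted to pH 4.6 or to pH 5.7, both with 3 mM DMG, so the control arm was also transferred. Roots of 6 days were turned into protoplasts, and GFP-positive cells were sorted from 5 marker lines, named Pet111::GFP (columella), pWER::GFP (epidermis and lateral root cap), pCOR315.1::GFP (cortex), pSCR::GFP (endodermis and quiescent center) and pWOL::GFP (stele). The design has 10 groups of 3 arrays. The labels do not say that the replicates came from separate cultures, and p-values therefore reflect only how far these arrays spread, part of which may be technical. In sorted bulk RNA, fewer cells of a kind and less RNA per cell cannot be told apart.

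Signals are linear intensities, array medians ran from 43.7 to 71.7, and precision is limited by 3 arrays a group. Of the lists of cell type markers, 2 epidermis markers summed to between 2809 and 8896 in the epidermis at pH 5.7, but also to between 1485 and 3303 in the stele. The 3 tested cortex markers were each highest in the cortex. A further cortex marker, CO2 (AT1G62500), failed the filter on low signals. Its mean in the cortex was 15.6 at pH 5.7, against 14.2 in the endodermis, and 10.1 at pH 4.6, against 23.4 in the columella, so it did not mark the cortex. Of the 3 endodermis markers GSO1 was highest in the endodermis, whereas AT4G28100 and AGL42 were higher in the cortex at both pH values. At pH 5.7 the 2 tested stele markers, PHV and LHW, summed to between 310.8 and 474 in the stele and to between 549.9 and 730.1 in the columella. At pH 4.6 the sums overlapped, at 544.6 to 986 in the stele and 800.1 to 824.6 in the columella. These markers thus did not set the stele apart at either pH. Markers of the columella were not analysed here. The 3' to 5' signal ratio of the GAPDH control, a sign of RNA quality, was lower at pH 4.6 by 1.01 in the cortex, 0.61 in the columella, 0.56 in the endodermis and 0.20 in the epidermis on the log2 scale, each with an exact two-sided permutation p of 0.10, the smallest that 3 against 3 arrays allow. In the stele the GAPDH difference was -0.15 (permutation p = 0.70). For ubiquitin the difference was -0.64 in the cortex with a permutation p of 0.10. Elsewhere it ran from -0.03 in the endodermis to 0.14 in the stele (permutation p from 0.30 to 0.80). For actin it ran from -0.10 in the columella to 0.63 in the stele (permutation p from 0.20 to 0.90). The 3 controls thus differed, and the part of RNA quality in the results was not tested.

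Of the members, 20 SCPL and 11 BGLU probe sets passed the filter on low signals and were tested. The other 9 SCPL members reached at most 35.9 on any of the 30 arrays (scpl44), and the other 8 BGLU members at most 31.2 (BGLU24). Those 8 include BGLU33, which releases abscisic acid from its glucose ester. On every array, 8 tested SCPL and 5 tested BGLU members lay above the pseudocount of 11.9, the value added to each signal before logarithms, so folds of dimmer members understate the ratio of signals. Values after ± are the SD of 3 arrays for signals and the standard error for log2 changes.

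At pH 5.7 most tested members differed between cell types, as most genes did. An F test across the 5 cell types called 17 of 20 SCPL and 8 of 11 BGLU members at an adjusted p under 0.05 (limma, Benjamini-Hochberg), against 82.7% of all 17038 tested probe sets. The exceptions were scpl33, SCPL43 and scpl47 among the SCPL members and BGLU27, BGLU45 and BGLU47 among the BGLU members, and none of these 6 exceeded a signal of 64.9 on any array. Among SCPL members the highest cell type was the columella for 6, the epidermis for 6, the cortex for 3, the endodermis for 3 and the stele for 2. Among BGLU members it was the endodermis for 5, the epidermis for 3, the columella for 2 and the stele for 1, and the cortex for 0. Of all tested probe sets, 37.8% were highest in the columella, 16% in the epidermis, 17% in the cortex, 18.4% in the endodermis and 10.9% in the stele. At pH 4.6 the highest cell type was unchanged for 16 of 20 SCPL and 8 of 11 BGLU members.

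The signal of scpl48 was 17941, 15089 and 16153 in the 3 columella arrays at pH 5.7 and 725, 580.5 and 188 in the 3 cortex arrays, with 5859 ± 567 in the epidermis. The columella stood above the mean of the other 4 cell types by 3.12 on the log2 scale (adjusted p = 9.66e-11). A similar slope held for scpl20, with 3618, 2564 and 3086 in the columella, 835 ± 90.9 in the epidermis and 39.5 ± 13.4 in the cortex. The columella was also highest for SCPL49, annotated as a carboxypeptidase Y, the type of enzyme found in vacuoles, but its levels were closer together. They ran from 781 ± 90.9 in the cortex to 2453 ± 57.3 in the columella. For scpl46 the columella gave 192, 198 and 208, and the epidermis 4.25, 13.98 and 1.91. These 4 members were brightest in the columella, the central root cap, and scpl26 was too, at 701 ± 16.5 against 249 ± 47.4 in the stele.

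In the epidermis, scpl28 gave 1130, 2291 and 1650, while the 3 cortex arrays gave 1.69, 2.49 and 2.76, below the pseudocount. This was the widest range between cell types among the tested members, and the columella lay between them at 799.6 ± 134. For scpl25 the epidermis (626 ± 126) and the columella (472 ± 65.2) were both bright, and the other 3 cell types had means from 15.3 to 33.0. The signal of SCPL34 was 3128 ± 728 in the epidermis and from 642 to 1223 elsewhere. The signal of scpl29 was 1815 ± 71.9 in the epidermis and between 407 and 873 elsewhere. Thus both were present in all 5 cell types with a maximum in the epidermis.

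Inner cell types led for other SCPL members. SCPL45 gave 2231, 2609 and 1827 in the endodermis and 21.2, 51.4 and 34.8 in the epidermis, so its lowest endodermis array lay far above its highest epidermis array. SCPL27 was brightest in the cortex, at 992 ± 76.7, and dimmest in the columella, at 38.7 ± 8.67. The columella was likewise the low point of scpl40, with 20.4, 15.4 and 11.6 there, against 870.2 ± 206 in the stele, 768 ± 138 in the cortex and 726 ± 74.9 in the epidermis. The last 3 of these differed little relative to their SDs. Among dimmer members, scpl50 was highest in the cortex (177 ± 21.6) and scpl35 in the stele (77.9 ± 28.6).

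Of the 11 tested BGLU members, 7 never exceeded a signal of 92.7, and the other 4 are described first. BGLU25, from the same subfamily as PYK10, gave 3081, 3057 and 2545 in the columella and 184, 134 and 153 in the endodermis. BGLU46, which cleaves the glucosides of lignin precursors, was high in the columella (1351 ± 143) and the endodermis (1216 ± 134) and low in the epidermis (135 ± 41.9). BGLU15, an enzyme that breaks down flavonol glycosides, was the reverse in the root cap, at 55.6 ± 16.5 in the columella, with about equal levels in the endodermis (1117 ± 202), the epidermis (1023 ± 388) and the stele (985 ± 64.0). BGLU16 was brightest in the epidermis (1625 ± 311) and dimmest in the columella (308 ± 39.3). These 4 genes thus had 3 different cell types at their maximum.

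Among the other 7 BGLU members, BGLU28, which breaks down glucosinolates in sulfur-starved plants, was measured above the pseudocount mainly in the endodermis. Its arrays gave 89.0, 65.1 and 35.5 there, and the means of the other 4 cell types lay between 3.43 and 8.83. No array outside the endodermis exceeded 28.1 at either pH, so BGLU28 passed the filter on low signals through the endodermis. A test of the endodermis against the others is not independent of that filter and is not used here. BGLU36, a myrosinase-like gene also named TGG6, gave 37.5, 41.8 and 71.2 in the epidermis and means from 1.71 to 16.5 elsewhere. It likewise passed the filter through the cell type where it was brightest. BGLU27 gave 40.1, 32.5 and 64.9 in the endodermis and 45.8, 54.5 and 34.0 in the columella, which overlap. BGLU40 was highest in the endodermis (47.2 ± 24.5) and BGLU41 in the stele (34.7 ± 4.60).

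**Figure D1:**
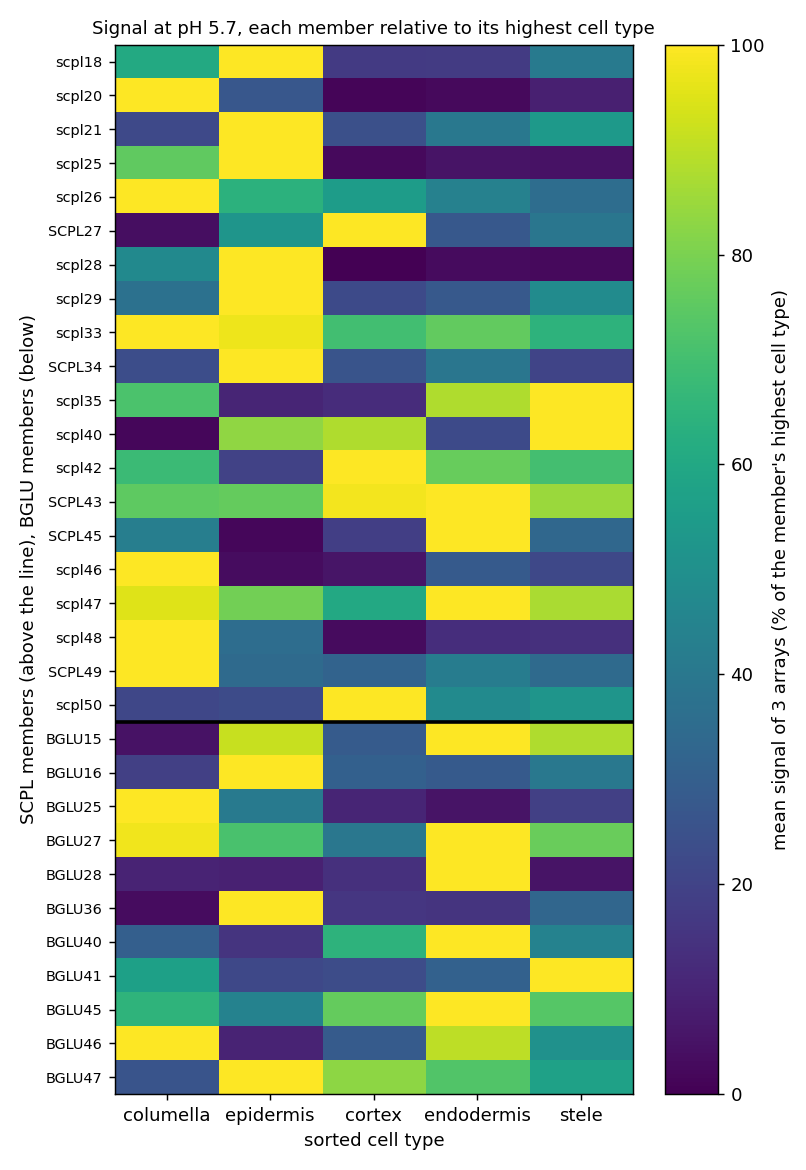
Mean signal of 3 arrays at pH 5.7 for every tested member (rows) in the 5 sorted cell types (columns), coloured as a percentage of the member's own highest cell type, so that rows cannot be compared for level. SCPL members above the line are highest in the columella or the epidermis for 6 of 20 each, against 37.8% and 16% of all tested probe sets. BGLU members below it are highest in the endodermis for 5 of 11, against 18.4%. These counts include scpl33 (columella) and BGLU27 and BGLU45 (endodermis), which the F test across cell types did not call.

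The comparison of pH 4.6 with pH 5.7 asks how 24 h of low pH changed these genes within each cell type. In every cell type more members fell than rose, and the median change of each family lay below that of all tested probe sets. In the columella 8 of 20 SCPL members and 3 of 11 BGLU members fell, against 10.6% of all probe sets, and 0 members of either family rose, against 9.95%. In limma's unadjusted test at p under 0.05, 1 SCPL and 0 BGLU members were higher there. In the epidermis 2 SCPL and 3 BGLU members fell, against 3.26%, and 0 rose, against 6.9%, with 2 SCPL and 0 BGLU members higher by the unadjusted test. In the cortex 4 SCPL and 2 BGLU members fell, against 7.51%, and 0 rose, against 11.6%, with 0 of either family higher by the unadjusted test. In the endodermis 6 SCPL and 3 BGLU members fell, against 6.97%, and 0 rose, against 9.6%, with 1 SCPL and 0 BGLU members higher by the unadjusted test. In the stele 3 SCPL members fell and 2 rose, and 1 BGLU member fell, against 2.86% and 4.18% of all probe sets, and 0 BGLU members rose by either the adjusted or the unadjusted test.

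Single arrays moved some of these counts by more than 1.5 times. In the epidermis 1 SCPL member fell and 0 rose without pH 4.6 replicate 1, pH 4.6 replicate 2 or pH 5.7 replicate 3. Without pH 4.6 replicate 3, 3 fell and scpl42 rose (adjusted p = 0.0244), and without pH 5.7 replicate 2, 1 fell while scpl18 (0.019) and scpl42 (0.0161) rose, so the balance of SCPL falls and rises there rested on that array. With a pseudocount of 55.3, 4 SCPL members fell in the epidermis and scpl18 rose (0.00615). The number of BGLU falls in the epidermis was 1 without pH 4.6 replicate 2, pH 5.7 replicate 1 or pH 5.7 replicate 3. In the endodermis scpl28 rose without pH 4.6 replicate 1 (0.00533) and with a replicate block (0.0336). The number of SCPL falls there was 3 without pH 4.6 replicate 3 or pH 5.7 replicate 2, and that of BGLU falls was 1 without replicate 1 of either pH. In the stele 1 SCPL member fell and 1 rose without pH 4.6 replicate 2 or pH 5.7 replicate 3. In the columella the number of BGLU falls was 1 without pH 4.6 replicate 3, pH 5.7 replicate 1 or pH 5.7 replicate 2. The number of SCPL falls moved less with single arrays in the columella (8 to 9) and the cortex (3 to 5). A rise was called in the columella for scpl21 without pH 5.7 replicate 3 (0.0392) and in the cortex for scpl28 with a pseudocount of 1 (0.0194).

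The median log2 change of the 20 SCPL members was -0.65 in the columella, -0.09 in the epidermis, -0.30 in the cortex, -0.33 in the endodermis and -0.12 in the stele. The medians of all tested probe sets were -0.02, 0.05, 0.02, -0.00 and 0.07 in the same order. For the 11 BGLU members the medians were -0.15, -0.33, -0.51, -0.27 and -0.08. With array medians made equal, the medians of all probe sets moved to -0.07 in the epidermis, -0.08 in the cortex and -0.04 in the stele. Members called in at least 1 cell type numbered 12 of 20 SCPL and 4 of 11 BGLU, against 42.7% of all probe sets. The share of BGLU members that responded was thus no higher than the background. Their 12 calls were all downward but came from only these 4 genes. BGLU42, left out by the rule, was higher in the epidermis (log2 change 0.63, adjusted p = 0.0134) and in the mean of the cell types (0.30, adjusted p = 0.00169). For SCPL, 23 calls within cell types were downward and 2 upward. In the mean over the 5 cell types, 10 SCPL members fell and 2 rose and 4 BGLU members fell and 0 rose, against 18.9% and 23.2% of all probe sets, and by the unadjusted test 0 BGLU members were higher. The interaction, an F test of whether the pH response is equal in the 5 cell types, called 7 SCPL and 2 BGLU members, against 12.5% of all probe sets. For BGLU this count was 1 without columella pH 4.6 replicate 1 or pH 5.7 replicate 2, and without cortex replicate 1 or 2 of either pH.

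**Figure D2:**
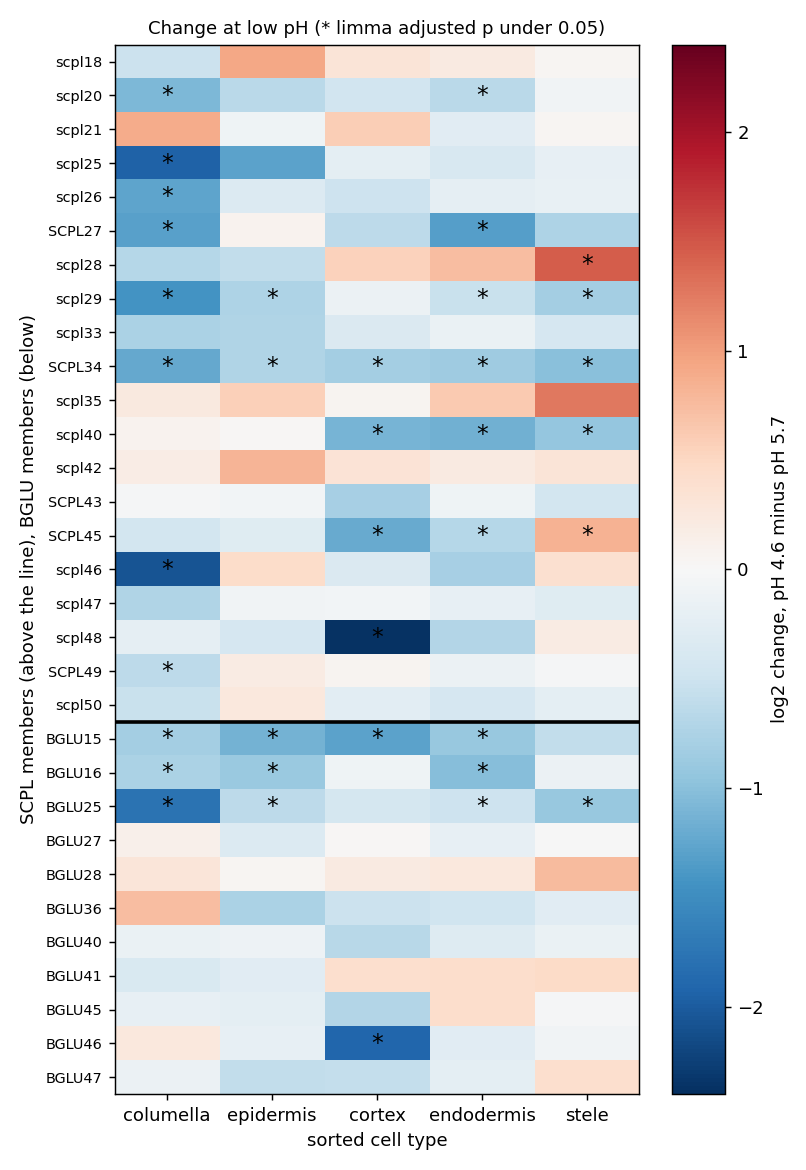
Log2 change at pH 4.6 against pH 5.7 for every tested member (rows) in 5 cell types (columns), with blue for lower and red for higher, and a star where the adjusted p is under 0.05. Stars on blue number 23 for SCPL and 12 for BGLU, and stars on red are limited to scpl28 and SCPL45 in the stele.

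**Figure D3:**
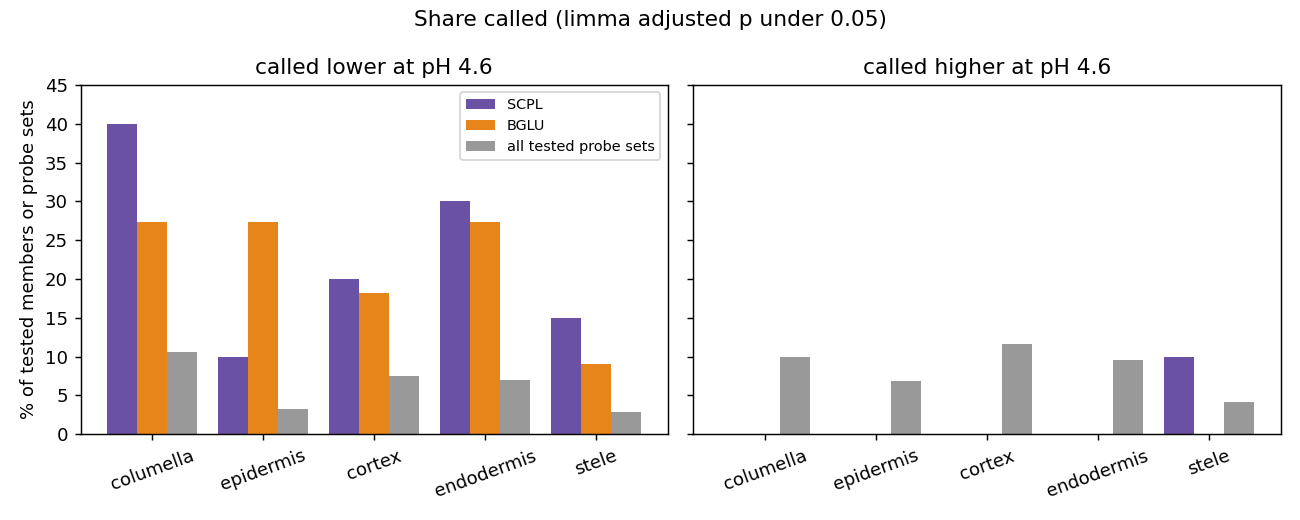
Share of tested SCPL members (20), BGLU members (11) and all tested probe sets (17038) called lower (left) or higher (right) at pH 4.6 in each cell type, in percent. The share called lower is above that of all probe sets in each cell type, and in the columella it is 40% for SCPL against 10.6%.

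SCPL34 was the only member called in all 5 cell types. In the columella its arrays gave 858, 643 and 716 at pH 5.7 and 252, 319.8 and 356 at pH 4.6, and in the epidermis 2311, 3708 and 3365 at pH 5.7 and 1936, 1433 and 2267 at pH 4.6. They gave 1011, 786 and 623 at pH 5.7 and 472, 389.9 and 479 at pH 4.6 in the cortex, 1165, 998 and 1507 at pH 5.7 and 681, 652 and 652 at pH 4.6 in the endodermis and 518, 654 and 754 at pH 5.7 and 458, 225 and 290.5 at pH 4.6 in the stele. In each cell type all 3 arrays at pH 4.6 were below all 3 at pH 5.7. The log2 changes were -1.23 ± 0.23, adjusted p = 0.000242 in the columella, -0.73 ± 0.23, adjusted p = 0.0417 in the epidermis, -0.81 ± 0.23, adjusted p = 0.0122 in the cortex, -0.85 ± 0.23, adjusted p = 0.0109 in the endodermis and -1.003 ± 0.23, adjusted p = 0.008 in the stele. The fall did not differ detectably between cell types (interaction adjusted p = 0.741), and its mean was 1.90-fold. In the epidermis, where same-numbered arrays deviated together, the call was lost with a replicate block (adjusted p = 0.0658, range over the alternatives 0.0233 to 0.242). It was also lost there with a pseudocount of 1 (0.0507), with quantile normalization (0.061) and with no filter (0.0531), and without pH 4.6 replicate 1 (0.0716) or 2 (0.242) and without pH 5.7 replicate 2 (0.12) or 3 (0.164). In the cortex it was lost without pH 4.6 replicate 2 (0.0582) or pH 5.7 replicate 1 (0.0951), in the endodermis without pH 5.7 replicate 3 (0.0705), and in the stele without pH 4.6 replicate 2 (0.0873) or pH 5.7 replicate 3 (0.0594). In the columella it held under each alternative, with adjusted p from 0.00016 to 0.00356.

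Of the other SCPL members scpl29 was called in the most cell types. It fell in 4, as BGLU15 and BGLU25 did, and by unequal amounts (interaction adjusted p = 0.00208). In the columella the arrays gave 586, 806 and 630.5 at pH 5.7 and 219, 263 and 238 at pH 4.6, a fall of 2.71-fold (-1.44 ± 0.15, adjusted p = 5.49e-08). In the epidermis they gave 1741, 1884 and 1819 at pH 5.7 and 1219, 937 and 1093 at pH 4.6 (-0.75 ± 0.15, adjusted p = 0.00196), and in the stele 920.2, 835 and 862 at pH 5.7 and 606, 421 and 464 at pH 4.6 (-0.81 ± 0.15, adjusted p = 0.00145). In the endodermis they gave 491, 527 and 492 at pH 5.7 and 395, 372 and 278 at pH 4.6 (-0.53 ± 0.15, adjusted p = 0.018), and this call was lost without pH 4.6 replicate 3 (0.111) or pH 5.7 replicate 2 (0.0628), in a range of 0.0143 to 0.111. In the cortex the 3 arrays of each pH did not overlap either, at 399.6, 409 and 412 at pH 5.7 and 353, 369 and 378 at pH 4.6, but the change of -0.15 ± 0.15, adjusted p = 0.576, was small and not called.

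For scpl40 the fall was called in the 3 inner cell types. The cortex arrays gave 758, 909.8 and 635 at pH 5.7 and 373, 364 and 305 at pH 4.6 (-1.11 ± 0.22, adjusted p = 0.000553), and the endodermis arrays 167, 243 and 174 at pH 5.7 and 78.4, 91.2 and 71.5 at pH 4.6 (-1.15 ± 0.22, adjusted p = 0.000629). The stele arrays gave 665, 869 and 1077 at pH 5.7 and 473, 388 and 477 at pH 4.6 (-0.93 ± 0.22, adjusted p = 0.0106), a call lost without pH 4.6 replicate 2 (0.075) or pH 5.7 replicate 3 (0.0909), in a range of 0.00256 to 0.0909. In the epidermis, where scpl40 was as bright as in the cortex, the arrays overlapped, with 726 ± 74.9 at pH 5.7 and 762 ± 217 at pH 4.6 (0.03 ± 0.22, adjusted p = 0.955). The responses of scpl40 differed between cell types (interaction adjusted p = 0.00533). SCPL27 fell in the columella, from arrays at 48.7, 34.1 and 33.2 to arrays at 6.82, 4.10 and 16.5 (-1.29 ± 0.24, adjusted p = 0.000183), of which those at 6.82 and 4.10 lay below the pseudocount. It fell in the endodermis from 276, 302 and 243 to 97.8, 92.0 and 119 (-1.32 ± 0.24, adjusted p = 0.000308). Its interaction was called as well (adjusted p = 0.0175), though not without epidermis pH 4.6 replicate 2 (0.0598) or pH 5.7 replicate 3 (0.0556), in a range of 0.00678 to 0.0598.

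Of the 8 SCPL members that fell in the columella, the other 5 were highest in the columella at pH 5.7, except scpl25, which was highest in the epidermis. For scpl46 the columella arrays went from 192, 198 and 208 at pH 5.7 to 37.0, 35.9 and 42.6 at pH 4.6, a fall of 4.20-fold (-2.07 ± 0.30, adjusted p = 8.4e-06), and its response differed between cell types (interaction adjusted p = 0.000586). For scpl25 the arrays were 547, 427 and 443 at pH 5.7 and 120.4, 104 and 118 at pH 4.6 (-1.94 ± 0.46, adjusted p = 0.00254), a call lost with a pseudocount of 1 (0.101, range 2.09e-06 to 0.101). The epidermis gave scpl25 values of 626 ± 126 and 254 ± 81.5 without a call (-1.29 ± 0.46, adjusted p = 0.07), and the arrays did not overlap there. For scpl26 the columella arrays were 708, 682 and 713 at pH 5.7 and 242, 303 and 313 at pH 4.6 (-1.27 ± 0.28, adjusted p = 0.00118). For scpl20 they were 3618, 2564 and 3086 at pH 5.7 and 1408, 1409 and 1533 at pH 4.6 (-1.07 ± 0.22, adjusted p = 0.000658), and for SCPL49 2390, 2503 and 2465 at pH 5.7 and 1641, 1589 and 1551 at pH 4.6 (-0.62 ± 0.18, adjusted p = 0.0134). The arrays of these 5 members, taken here for their calls, did not overlap in the columella, where 20.9% of all tested probe sets were lower without overlap. The other call among them was scpl20 in the endodermis, at 62.2, 101 and 64.2 at pH 5.7 and 38.1, 49.2 and 41.6 at pH 4.6 (-0.65 ± 0.22, adjusted p = 0.0409), lost with a pseudocount of 55.3 (0.113), with no filter (0.051) and without pH 4.6 replicate 1 (0.139) or 3 (0.0818) or pH 5.7 replicate 2 (0.22), in a range of 0.0307 to 0.22.

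The largest fall among all members was that of scpl48 in the cortex. Its cortex arrays gave 725, 580.5 and 188 at pH 5.7 and 89.6, 47.3 and 91.2 at pH 4.6, a fall of 5.20-fold (-2.38 ± 0.36, adjusted p = 1.56e-05), and the adjusted p ran from 2.12e-07 to 0.000374 over the alternatives. In the columella, its brightest cell type, the arrays overlapped and the change was -0.22 ± 0.36, adjusted p = 0.74. The endodermis arrays gave 2136, 2015 and 2201 at pH 5.7 and 667, 1746 and 1832 at pH 4.6 without a call (-0.71 ± 0.36, adjusted p = 0.179), and pH 4.6 replicate 1 was the low one. SCPL45 also fell in the cortex, at 456, 476 and 306 at pH 5.7 and 167, 162 and 179 at pH 4.6 (-1.20 ± 0.22, adjusted p = 0.000167). The responses of both genes differed between cell types (interaction adjusted p = 0.00522 for scpl48 and 0.00045 for SCPL45).

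SCPL45 went opposite ways in neighbouring cell layers. In the endodermis, its brightest cell type, it fell, at 2231, 2609 and 1827 at pH 5.7 and 1582, 1257 and 1277 at pH 4.6 (-0.68 ± 0.22, adjusted p = 0.0297). In the stele it rose, at 1018, 665 and 537 at pH 5.7 and 1311, 1253 and 1306 at pH 4.6 (0.84 ± 0.22, adjusted p = 0.0167). Neither pair of groups overlapped. The endodermis call was lost without pH 4.6 replicate 2 (0.0812) or 3 (0.0773) or pH 5.7 replicate 1 (0.0731) or 2 (0.133), and with a pseudocount of 1 (0.0566), in a range of 0.0105 to 0.133. The stele call was lost without pH 4.6 replicate 2 (0.062) or 3 (0.0536) or pH 5.7 replicate 2 (0.0668) or 3 (0.145), in a range of 0.00285 to 0.145.

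The other rise within a cell type was that of scpl28 in the stele, where the arrays gave 47.5, 34.2 and 47.4 at pH 5.7 and 148, 108 and 161 at pH 4.6, a rise of 2.74-fold (1.45 ± 0.34, adjusted p = 0.00804). All 3 arrays at pH 4.6 were above all at pH 5.7, and the call held under each alternative (adjusted p 0.000836 to 0.044). The stele remained far below the epidermis, where scpl28 gave 1690 ± 582 at pH 5.7 and 1084 ± 170.1 at pH 4.6 with overlapping arrays (-0.59 ± 0.34, adjusted p = 0.303). Its columella arrays were lower at pH 4.6 without overlap, at 799.6 ± 134 and 493 ± 69.2, also without a call (-0.68 ± 0.34, adjusted p = 0.164). The responses differed between cell types (interaction adjusted p = 0.0065). The mean over the 5 cell types was higher for scpl35 (0.56 ± 0.19, adjusted p = 0.021) and scpl42 (0.36 ± 0.15, adjusted p = 0.0472), neither of which was called in a single cell type. For scpl35 the stele arrays went from 95.4, 93.5 and 44.9 to 182, 229.5 and 181 (1.27 ± 0.43, adjusted p = 0.0709), and the call of the mean was lost with a pseudocount of 1 (0.0753, range 0.00649 to 0.0753). For scpl42 it was lost with a pseudocount of 1 (0.0576), quantile normalization (0.0713), equal array medians (0.0943) or no filter (0.0677). It was also lost on leaving out any of 21 single arrays, with adjusted p from 0.0519 to 0.0961, and its group means ran from 9.66 to 64.3.

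**Figure D4:**
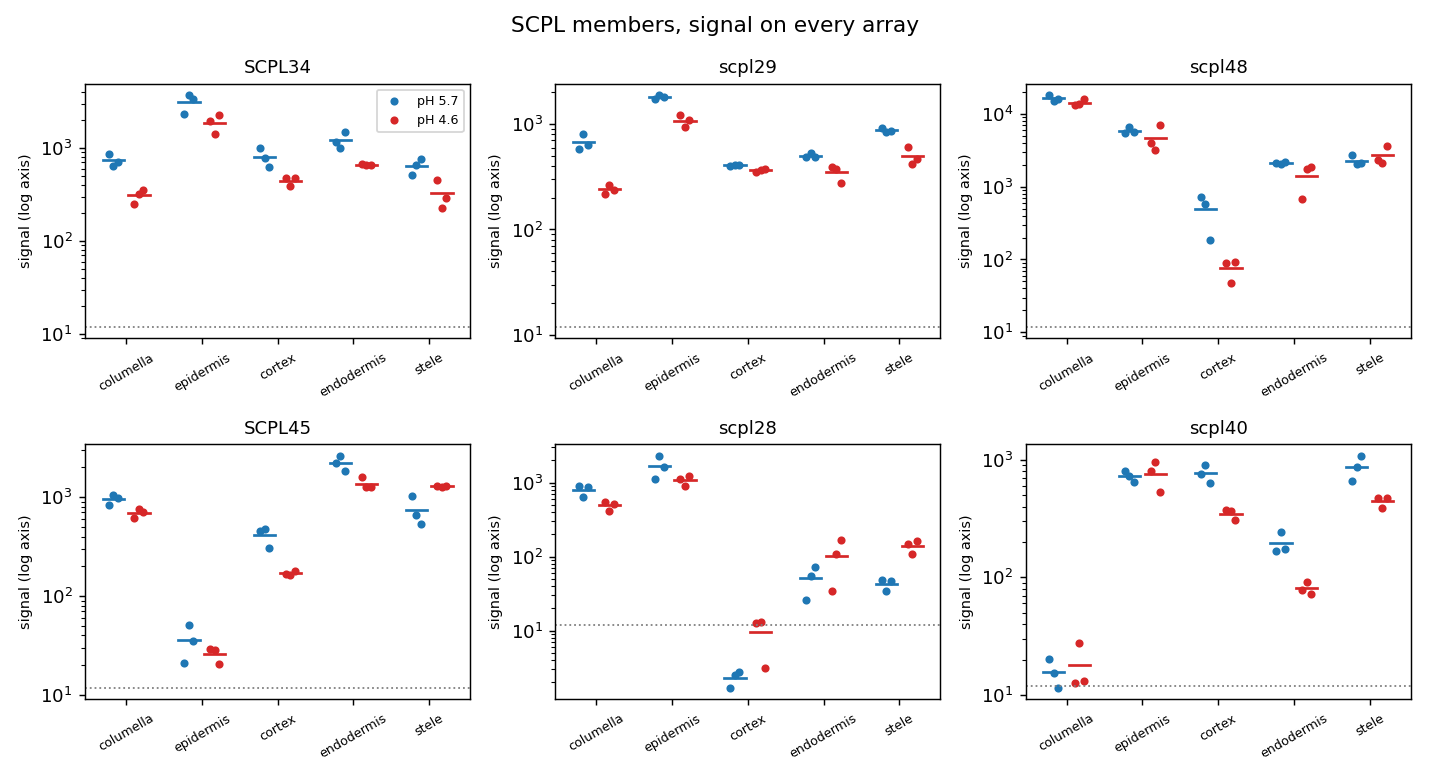
Signal on each of the 30 arrays for SCPL34, scpl29, scpl48, SCPL45, scpl28 and scpl40, by cell type, on a log axis, with blue points for pH 5.7, red points for pH 4.6, bars for means of 3 arrays and a dotted line at the pseudocount of 11.9. SCPL34 is lower at pH 4.6 in all 5 cell types, scpl48 drops in the cortex, and SCPL45 drops in the endodermis but rises in the stele.

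Among the beta-glucosidases, the calls came from 4 genes, BGLU15, BGLU16, BGLU25 and BGLU46. BGLU15 fell in 4 cell types. The epidermis arrays gave 1400, 625 and 1045 at pH 5.7 and 599.7, 355 and 394 at pH 4.6 (-1.13 ± 0.25, adjusted p = 0.00375), and the cortex arrays 402, 334 and 222 at pH 5.7 and 115, 118 and 129 at pH 4.6, a fall of 2.43-fold (-1.28 ± 0.25, adjusted p = 0.000422). The endodermis arrays gave 1348, 1025 and 977 at pH 5.7 and 495, 680.2 and 592 at pH 4.6 (-0.91 ± 0.25, adjusted p = 0.0128), a call lost without replicate 1 of pH 4.6 (0.0718) or of pH 5.7 (0.0711), in a range of 0.00507 to 0.0718. The columella arrays were much dimmer, at 62.3, 67.7 and 36.7 at pH 5.7 and 18.2, 36.0 and 24.99 at pH 4.6 (-0.81 ± 0.25, adjusted p = 0.0201). That call was lost without pH 4.6 replicate 1 (0.118) or 3 (0.0562), without pH 5.7 replicate 1 (0.0807) or 2 (0.103), and with a pseudocount of 55.3 (0.157), in a range of 0.00698 to 0.157. In the stele the arrays did not overlap, at 978, 925 and 1052 at pH 5.7 and 667, 614 and 658 at pH 4.6, but the change was not called (-0.60 ± 0.25, adjusted p = 0.154). The response of BGLU15 did not differ detectably between cell types (interaction adjusted p = 0.567), and the mean fall was 1.93-fold.

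BGLU25 fell in 4 cell types, most in the one where it was brightest. Its columella arrays gave 3081, 3057 and 2545 at pH 5.7 and 833, 879 and 812 at pH 4.6, a fall of 3.40-fold (-1.76 ± 0.17, adjusted p = 9.98e-09). The stele arrays gave 548, 436 and 673 at pH 5.7 and 280.4, 235 and 343 at pH 4.6 (-0.92 ± 0.17, adjusted p = 0.00136) and the epidermis arrays 1205, 1125 and 1201 at pH 5.7 and 749, 696 and 838 at pH 4.6 (-0.62 ± 0.17, adjusted p = 0.019). The endodermis arrays gave 184, 134 and 153 at pH 5.7 and 108, 119.6 and 94.6 at pH 4.6 (-0.50 ± 0.17, adjusted p = 0.0465). The groups of these 4 cell types did not overlap, while those of the cortex did, at 298 ± 55.4 and 219 ± 30.6 (-0.42 ± 0.17, adjusted p = 0.0926). The responses differed between cell types (interaction adjusted p = 0.0014, range 0.000198 to 0.00732). The epidermis call was lost without pH 4.6 replicate 1 (0.0508) or 2 (0.0978) or pH 5.7 replicate 1 (0.0676) or 3 (0.0761), in a range of 0.01 to 0.0978. The endodermis call was lost with a pseudocount of 55.3 (0.0875), equal array medians (0.0596) or no filter (0.0529), and without pH 4.6 replicate 1 (0.101) or 3 (0.142) or pH 5.7 replicate 1 (0.189) or 3 (0.0861), in a range of 0.0197 to 0.189. The cortex became called with equal array medians (0.0466) and without pH 5.7 replicate 3 (0.0498).

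BGLU16 fell in 3 cell types. The endodermis arrays gave 580.2, 506 and 295 at pH 5.7 and 242, 235 and 166 at pH 4.6 (-1.03 ± 0.24, adjusted p = 0.00436), the epidermis arrays 1592, 1332 and 1951 at pH 5.7 and 1228, 624 and 825 at pH 4.6 (-0.89 ± 0.24, adjusted p = 0.0182) and the columella arrays 308, 348 and 269 at pH 5.7 and 204, 162 and 168 at pH 4.6 (-0.75 ± 0.24, adjusted p = 0.0274). The groups did not overlap in these 3 cell types and overlapped in the cortex (-0.10 ± 0.24, adjusted p = 0.838) and the stele (-0.13 ± 0.24, adjusted p = 0.814), but a difference between cell types was not called (interaction adjusted p = 0.131). The epidermis call was lost without pH 4.6 replicate 2 (0.155) or 3 (0.0542) or pH 5.7 replicate 1 (0.0547) or 3 (0.122), in a range of 0.00537 to 0.155. The columella call was lost without pH 4.6 replicate 2 (0.0929) or 3 (0.0817) or pH 5.7 replicate 1 (0.0665) or 2 (0.106), in a range of 0.0169 to 0.106.

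BGLU46 fell in the cortex alone among the called contrasts, from arrays at 517, 449.5 and 197 to arrays at 86.0, 68.8 and 112, a fall of 3.73-fold (-1.90 ± 0.37, adjusted p = 0.0004, range 6.07e-05 to 0.00596). In its brightest cell types, the columella and the endodermis, the groups overlapped, with log2 changes of 0.26 ± 0.37, adjusted p = 0.695 and -0.27 ± 0.37, adjusted p = 0.685. The endodermis arrays at pH 4.6 were 479, 1538 and 1368, so 1 array lay far below the others. The interaction was called (adjusted p = 0.0301), but not without columella pH 4.6 replicate 1 (0.0519) or pH 5.7 replicate 2 (0.0511), nor without cortex pH 4.6 replicate 1 (0.0701) or 2 (0.0938) or pH 5.7 replicate 1 (0.115) or 2 (0.103), in a range of 0.00458 to 0.115. The call of the mean (adjusted p = 0.0342) was lost on leaving out any of 11 arrays, with values from 0.0516 to 0.072. The 7 other tested BGLU members were not called in any cell type, and their log2 changes ran from -0.77 (BGLU36 in the epidermis) to 0.75 (BGLU28 in the stele).

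**Figure D5:**
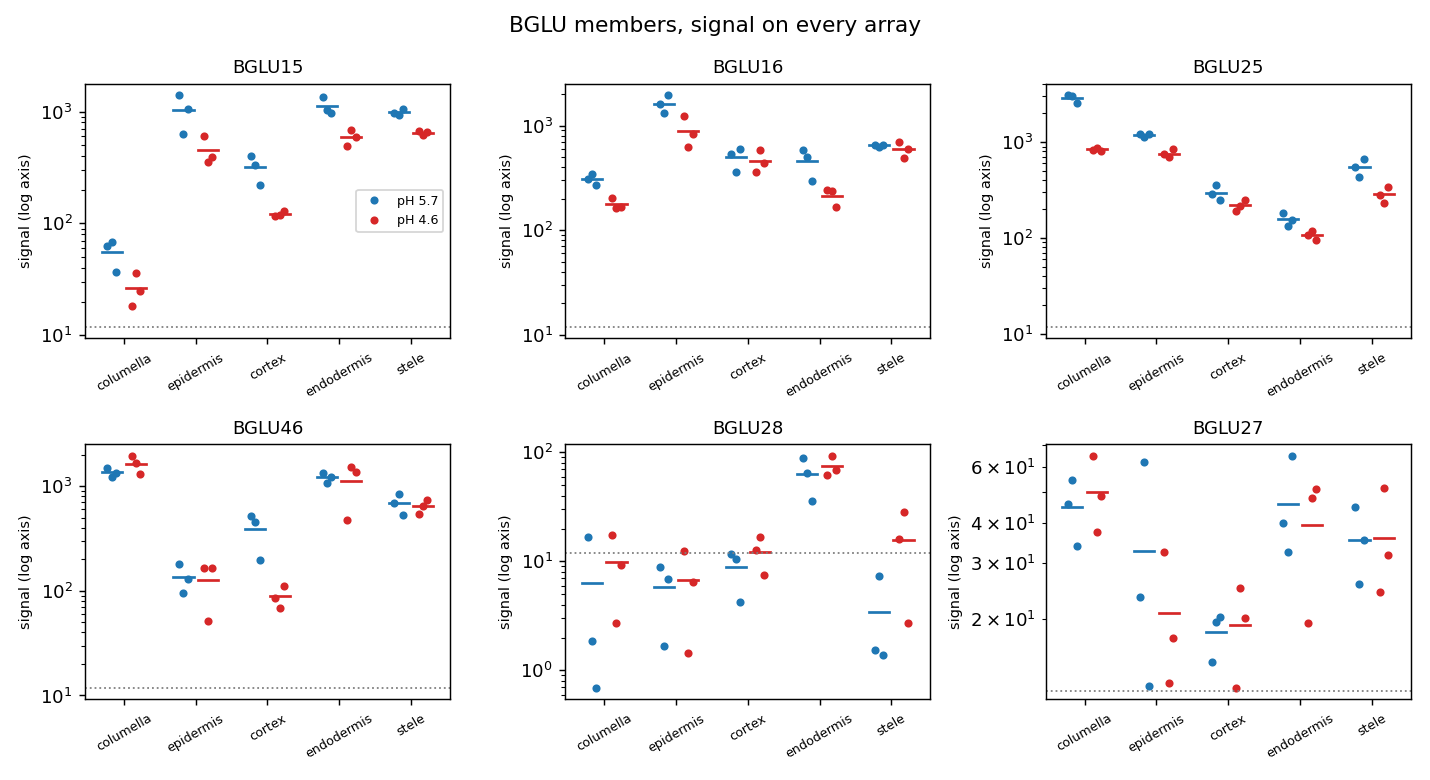
Signal on each of the 30 arrays for BGLU15, BGLU16, BGLU25, BGLU46, BGLU28 and BGLU27, by cell type, on a log axis, with blue points for pH 5.7, red points for pH 4.6, bars for means of 3 arrays and a dotted line at the pseudocount of 11.9. BGLU25 drops most in the columella and BGLU46 in the cortex, and the points of BGLU27 overlap in all 5 cell types.

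The members that fell in the cortex, SCPL34, scpl40, SCPL45, scpl48, BGLU15 and BGLU46, each had their highest level at pH 5.7 in another cell type. Members highest in the cortex were 3 of 20 SCPL (15%) and 0 of 11 BGLU, against 17% of all tested probe sets. The highest was the endodermis for SCPL45 and BGLU15, the columella for scpl48 and BGLU46, the epidermis for SCPL34 and the stele for scpl40. In the cortex the endodermis marker GSO1, a receptor kinase of barrier formation, had arrays at 2698, 1966 and 829 at pH 5.7 and at 609, 291 and 483 at pH 4.6 (log2 change -1.87 ± 0.32, adjusted p = 8e-05). The 3 tested endodermis markers together summed to between 1363 and 3223 in the cortex at pH 5.7 and to between 734 and 1062 at pH 4.6, and 1 of the 3 was called lower. Cortex pH 5.7 replicate 3 was the lowest of its group for GSO1, scpl48, SCPL45, SCPL34, scpl40, BGLU15 and BGLU46. Of the other endodermis markers, it was the lowest for AGL42 and the highest for AT4G28100. Among the cortex markers it was the lowest for AT1G62510 (1826 against 3196 and 3268). It was the highest for AT1G09750 (4844 against 3286 and 4175) and, narrowly, for AT3G21670. The epidermis markers EXPA7 and EXPA18 were also lowest on it, whereas of the stele markers LHW was highest and PHV in the middle. In the endodermis pH 4.6 replicate 1 was the lowest of its group for GSO1 (3008 against 5973 and 5659), scpl48, BGLU46 and BGLU15. That array was the highest for SCPL45, SCPL34 and the endodermis marker AT4G28100 (217.5 against 159.6 and 165.4), and the middle one for scpl40 and AGL42. Of the 3 tested cortex markers, 2 were called lower in the cortex, among them AT1G09750, with 4102 ± 782 at pH 5.7 and 1435 ± 337 at pH 4.6 (log2 change -1.52 ± 0.37, adjusted p = 0.00365). The part of cells of another layer and of RNA quality in the cortex values was not tested.

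In each of the other cell types some members that fell had their highest level at pH 5.7 in that cell type. In the columella this held for 4 of 8 SCPL and 1 of 3 BGLU members that fell. In the epidermis it held for both SCPL members and 1 of 3 BGLU members. In the endodermis it held for 1 of 6 SCPL and 1 of 3 BGLU members, and in the stele for 1 of 3 and 0 of 1. Among all 20 tested SCPL members, 6 were highest in the columella, 6 in the epidermis, 3 in the endodermis and 2 in the stele. Among the 11 BGLU members the numbers were 2, 3, 5 and 1 in the same order. The shares of all tested probe sets were 37.8%, 16%, 18.4% and 10.9%. In the epidermis the markers EXPA7 and EXPA18, expansins of root hair cells, were called lower at pH 4.6, at 3468 ± 1830 and 925 ± 173 for EXPA7 (log2 change -1.77 ± 0.46, adjusted p = 0.0123). Their summed signal ran from 2809 to 8896 at pH 5.7 and from 1046 to 1559 at pH 4.6, and its part in the epidermis results was not tested. Markers of other layers were also called lower at pH 4.6. In the stele EXPA7 went from 1518 ± 711.9 to 467 ± 87.9 (-1.60 ± 0.46, adjusted p = 0.0307), and the cortex markers AT1G62510 and AT3G21670 from 254.5 ± 30.7 to 99.4 ± 15.3 (-1.26 ± 0.31, adjusted p = 0.0115) and from 39.9 ± 14.8 to 4.25 ± 0.386 (-1.64 ± 0.27, adjusted p = 0.000286). The 2 epidermis markers there summed to between 1485 and 3303 at pH 5.7 and to between 547.7 and 933.1 at pH 4.6, and 1 of the 2 was called. The 3 cortex markers summed in the stele to between 301.1 and 442.4 at pH 5.7 and to between 132.5 and 158.7 at pH 4.6, and 2 of the 3 were called. In the epidermis 2 of the 3 cortex markers were called lower, AT1G62510 (adjusted p = 0.0205) and AT3G21670 (0.0112), with sums from 161 to 343.1 at pH 5.7 and from 91.3 to 133 at pH 4.6. In the endodermis AT3G21670 alone of the 3 was called, from 27.1 ± 3.39 to 3.90 ± 1.22 (-1.30 ± 0.27, adjusted p = 0.00114), with sums from 159.3 to 225.1 at pH 5.7 and from 69.9 to 111.9 at pH 4.6. The part of these cells in the stele, epidermis and endodermis results was not tested. No tested marker was called in the columella, but none of its own markers was tested. The cortex and epidermis markers were dim there at pH 5.7, with sums of at most 65.5 and 81.0, so a fall could be missed. AT1G62510 went there from 15.7 ± 13.2 to 3.22 ± 1.66 without a call (-0.76 ± 0.31, adjusted p = 0.08).

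Some members are neighbours in the gene order of TAIR10.1, an annotation used here only for that order and for symbols. There were 8 neighbouring pairs, 2 of SCPL and 6 of BGLU genes, and both genes were tested in 4 of them. Over the 10 group means of log2 signal, which share arrays and cell types, Pearson's r was 0.65 for BGLU45 and BGLU46, 0.49 for scpl28 and scpl26, 0.31 for BGLU15 and BGLU28, and -0.52 for BGLU27 and BGLU16. BGLU15 and BGLU28 were both highest in the endodermis, but BGLU15 fell in 4 cell types and BGLU28 had no call. In the cortex BGLU45 gave 18.7 ± 12.3 at pH 5.7 and 5.99 ± 3.75 at pH 4.6 (log2 change -0.70 ± 0.38, adjusted p = 0.222), beside the called fall of BGLU46.

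The families act beside other genes of glucoside storage and release, which were taken as lists. Of 16 genes of ER bodies and the PYK10 complex, 6 were tested. In the columella 4 of the 6 fell, against 10.6% of all probe sets, and their median log2 change was -1.43, against -0.02 for all probe sets. PYK10 fell there from 13325 ± 772 to 4862 ± 278 (log2 change -1.45 ± 0.21, adjusted p = 9.03e-06), beside the columella fall of BGLU25. NAI2, needed to form ER bodies, fell from 1277 ± 120 to 459 ± 59.0 (adjusted p = 1.62e-05). The lectins JAL33 and JAL34, which associate with PYK10, fell to a like degree, with log2 changes of -1.45 and -1.42. In the endodermis 4 of the 6 fell as well, against 6.97% of all probe sets. In the epidermis, cortex and stele 1 of 6 did, against 3.26%, 7.51% and 2.86%. The single fall was JAL33 in the epidermis, PYK10 in the cortex and NAI2 in the stele. In the epidermis, where PYK10 was as bright as in the columella at pH 5.7, it stood at 12035 ± 696 and 11049 ± 956 (log2 change -0.12 ± 0.21, adjusted p = 0.795).

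Of 17 genes of sinapate esters and phenylpropanoids, 6 were tested. UGT84A1, which makes the glucose esters that some SCPL acyltransferases use, rose in the epidermis from 23.5 ± 24.5 to 125 ± 44.6 (log2 change 2.17 ± 0.46, adjusted p = 0.00228) and in the cortex (1.44 ± 0.46, adjusted p = 0.0251). UGT72E3, which glucosylates lignin precursors, fell in the cortex from 500.1 ± 268 to 164 ± 64.8 (-1.42 ± 0.38, adjusted p = 0.00718), in the same cell type as BGLU46. No other tested gene of this list was called within a cell type. Of 9 genes of abscisic acid conjugation and turnover, 2 were tested, and UGT71C5, which stores abscisic acid as its glucose ester, rose in all 5 cell types with adjusted p from 0.000162 to 0.0469. Of 22 genes of indole glucosinolates and myrosinases, 2 were tested, and UGT74B1, a glucosyltransferase of glucosinolate synthesis, rose in the epidermis (0.86 ± 0.20, adjusted p = 0.006). Of 7 coumarin genes, 3 were tested. AT3G13610, the hydroxylase at the start of coumarin synthesis, rose in the columella (2.55 ± 0.34, adjusted p = 2.01e-06) and the endodermis (1.38 ± 0.34, adjusted p = 0.00553). AT1G28680, a later enzyme of that route, fell in the columella (-0.80 ± 0.27, adjusted p = 0.0308). BGLU42, the beta-glucosidase left out by the rule, rose in the epidermis (0.63 ± 0.17, adjusted p = 0.0134), which no tested BGLU member did.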

How the data were processed

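RNA of sorted cells was amplified in 2 cycles and hybridised to 30 ATH1 arrays. The deposited values are intensities on a linear scale that the authors made with MAS5, per the submitters' processing notes, and each array has a trimmed mean of 250.0. No version and no genome build are given in the sources used here, so no coordinates are printed. Groups and replicate numbers come from the labels, and no array duplicates another.

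From the deposited intensities, log2 of the signal plus 11.9 (percentile 25 of all values) was computed. Of 22810 probe sets, 64 controls were set aside, and the 17038 whose signal passed percentile 40 of the array on 3 or more of the 30 arrays were tested. A mean per group was fitted with limma 3.58.1 in R 4.3.3, with moderation by intensity trend (20 residual and 8.32 prior degrees of freedom). P-values were adjusted over all tested probe sets by the Benjamini-Hochberg method, with a threshold of 0.05. Genes were named from the platform annotation, symbols from the TAIR10.1 annotation. The script was tested on simulated data. Alternatives were pseudocounts of 1 and 55.3, quantile normalization, equal array medians, no filter, a replicate block and leaving out each array.

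Arrays of the same number deviated together, with correlations over 0.1 in all 3 pairs, in the epidermis alone, and over 15 pairs the correlation ran from -0.135 to 0.211. In the epidermis pH 4.6 replicate 1 and pH 5.7 replicate 3 also reached 0.140, above the 0.121 of the arrays numbered 3. A pair of unlike numbers in the cortex reached 0.334. Neither these correlations nor the labels settle whether the arrays are paired. Members, lists and tests were chosen with earlier results of these data known. Members called in any cell type or in the interaction are given array by array, as are the 6 with the highest mean signal and the 6 with the widest range between cell types in each family.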

Additional observations from a re-analysis of the deposited data

Results flagged for a closer look

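For 9 members the size or direction of the pH response differed between the 5 cell types, by the F test of the interaction in limma with adjusted p-values over all tested probe sets. Among SCPL members these were SCPL45 (adjusted p = 0.00045), scpl46 (0.000586), scpl29 (0.00208), scpl48 (0.00522), scpl40 (0.00533), scpl28 (0.0065) and SCPL27 (0.0175). Among BGLU members they were BGLU25 (0.0014) and BGLU46 (0.0301). SCPL45 was called lower in the cortex and endodermis and higher in the stele, scpl28 was called higher in the stele alone, and the other 7 were called lower in 1 to 4 cell types and higher in 0.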

How the results depend on the processing

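Of 62 calls of a member in a contrast, 40 held under each alternative run, and of the 37 calls within a cell type 21 did, while 0 changed direction. Of 96 family counts under the 6 alternatives that keep all arrays, 91 lay within 1.5 times the reported count. The exceptions all concern the SCPL members in the epidermis, where the reported count of 2 became 1 with a pseudocount of 1, 1 with quantile normalization, 1 with no filter, 4 with equal array medians and 5, of which 1 was a rise, with a pseudocount of 55.3, and the cause was not tested. Leaving out 1 array at a time gave, with both directions counted together, between 1 and 4 calls there, 3 to 7 for SCPL in the endodermis and 2 to 6 for SCPL in the stele. It gave 1 to 3 for BGLU in the columella, the epidermis, the endodermis and the interaction, and 17 and 8 to 10 for SCPL and BGLU differences between cell types. With a replicate block the epidermis counts were 2 for SCPL and 3 for BGLU, where SCPL34 lost its call (adjusted p = 0.0658) and scpl20 gained one (0.0431). In the other 4 cell types same-numbered arrays did not all deviate together. There the block added falls of scpl28 in the columella (0.043) and scpl46 in the endodermis (0.045). It also added rises of scpl28 in the endodermis (0.0336) and scpl35 in the stele (0.0415), and removed no call within these cell types. With 3 arrays a group and signals near the pseudocount for many members, a change that was not called may still be present.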
